A study of Mus musculus with 6 samples.

Results

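The hair keratins, the inner root sheath keratins and the keratin-associated proteins are the structural proteins of the growing hair follicle. They were taken by gene name: Krt31 to Krt36 and Krt81 to Krt86 (13 keratins of the hair shaft), Krt25 to Krt28 and Krt71 to Krt73 (7 keratins of the inner root sheath), Krt75 (the keratin of the companion layer) and every gene named Krtap (52 keratin-associated proteins). This gave 73 of the 23913 genes in the expression table. Of these, 72 averaged 1 FPKM or more across the 6 libraries. The exception, Krtap13, was listed at 0 in all 6. FPKM counts the sequenced fragments of a gene per kilobase of its transcript, relative to the total of fragments counted for the library. Levels of different genes can thus be set side by side per length.

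The study asked how a topical BRAF inhibitor acts on the repair of skin wounds. Full-thickness incisional wounds were made in the shaved back skin of young adult female mice of the C3H strain (C3Hf/Kam in the study's methods), and skin was resected around the wound for RNA sequencing. The groups were vemurafenib-treated wounds on days 2, 6 and 14 and control wounds on the same days, with 1 library for each arm and day and 6 libraries in all. Vemurafenib, a BRAF inhibitor, was applied as a suspension every other day. The GEO labels record the controls as having had no treatment, whereas the study's methods describe DMSO in saline, and these wounds are called vehicle here. No transgene or gene deletion is given for either arm, and how many mice went into a library is not stated. The tissue was whole skin with its fat and muscle, so that fewer cells of a type and less RNA per cell cannot be told apart.

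As background, hair is made by follicles in their growth phase, anagen. Matrix keratinocytes at the base of the follicle divide and differentiate upwards into the shaft and into the inner root sheath, a rigid tube that moulds the shaft and breaks down before the hair emerges. In the shaft, type I and type II hair keratins pair into filaments, and the keratin-associated proteins, rich in cysteine or in glycine and tyrosine, form the matrix that crosslinks them. Inner root sheath keratins and the earliest shaft keratins are made low in the follicle, and most keratin-associated proteins are made later, higher in the shaft. Plucking of resting hairs, or a wound nearby, can bring resting follicles into anagen.

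The 6 libraries had between 12746 and 13062 genes at 1 FPKM or more. In 4 of the columns more than 50.3% of the values carried over 6 digits, as averages of 2 such values would, whereas the columns of vemurafenib day 2 and vehicle day 14 did not. Both day 6 columns had the averaged form, and on days 2 and 14 the form differed between the arms. Keratinocyte genes of the epidermis (6 genes, among them Krt5, Krt14, Krt1 and Krt10), not all particular to skin between the follicles, were present in every library. Their summed levels lay between 4676 and 22928 FPKM. No test between the arms was possible on a single day, as each had 1 library. Values of both libraries are given instead, with the log2 ratio of vemurafenib to vehicle after 0.1 FPKM was added to each level.

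The promoters of the genes with a RefSeq entry (build GRCm38.p6, 250 bases before to 50 after the start) were read for 61 of the 73 genes. The TATA box letters TATAAA stood on either strand in 50 of the 61 (82%), against 13.6% of all 32851 promoters of that length. Counted only on the strand of the gene and beginning 45 to 15 bases before the start, a window chosen after the values were seen, TATAAA stood in 37 of the 61 (60.7%), against 2.25% of all promoters. The LEF1 core letters CTTTGAA, searched on both strands, stood in 14 of the 61 (23%), against 5.14% of all promoters, with 4 of these among the 7 shaft keratins read. The GATA letters AGATAA, also on both strands, stood in 14 of the 61 (23%), against 11.2% of all promoters. They were in 4 of the 7 inner root sheath keratins and in 0 of the 7 shaft keratins read. None of the 3 motifs contains another, and a match is a description of letters only. Shown as examples are the promoters of an inner root sheath keratin, a shaft keratin of the cortex and the most abundant keratin-associated protein. That of Krtap17-1, counted as ultra-high sulfur, is shown as well. Capitals mark the motifs. TATAAA begins at position -40 in Krt71, -29 in Krt31, -29 in Krtap8-1 and -31 in Krtap17-1, counted from the start.
Krt71, chr15:101743048-101743347, minus strand: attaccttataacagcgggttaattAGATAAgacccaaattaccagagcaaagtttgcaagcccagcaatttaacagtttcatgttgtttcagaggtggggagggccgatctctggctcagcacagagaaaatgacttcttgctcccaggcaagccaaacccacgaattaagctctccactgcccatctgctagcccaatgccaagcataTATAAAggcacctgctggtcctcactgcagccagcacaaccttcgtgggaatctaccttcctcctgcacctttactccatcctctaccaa
Krt31, chr11:100050502-100050801, minus strand: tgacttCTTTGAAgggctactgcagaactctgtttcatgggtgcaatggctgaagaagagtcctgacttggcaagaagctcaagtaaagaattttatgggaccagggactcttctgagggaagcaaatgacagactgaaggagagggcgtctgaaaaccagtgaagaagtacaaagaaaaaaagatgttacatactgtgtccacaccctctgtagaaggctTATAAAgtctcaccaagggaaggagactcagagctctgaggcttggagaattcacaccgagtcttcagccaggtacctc
Krtap8-1, chr16:89487903-89488202, minus strand: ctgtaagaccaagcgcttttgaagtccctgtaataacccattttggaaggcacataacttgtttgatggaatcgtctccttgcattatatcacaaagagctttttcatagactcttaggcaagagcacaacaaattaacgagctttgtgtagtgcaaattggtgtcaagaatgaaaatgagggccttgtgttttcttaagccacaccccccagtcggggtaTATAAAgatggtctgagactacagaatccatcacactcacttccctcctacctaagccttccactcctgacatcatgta
Krtap17-1, chr11:99993945-99994244, minus strand: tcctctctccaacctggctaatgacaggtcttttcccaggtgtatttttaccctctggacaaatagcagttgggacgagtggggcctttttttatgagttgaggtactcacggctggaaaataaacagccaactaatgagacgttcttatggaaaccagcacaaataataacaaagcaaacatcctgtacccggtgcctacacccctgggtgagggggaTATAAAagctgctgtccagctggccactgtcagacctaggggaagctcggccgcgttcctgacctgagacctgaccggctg

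On day 2 the genes of all 3 classes were at or near 0 in both arms. In vemurafenib wounds 52 of the 73 genes were listed at 0, and 53 were in vehicle wounds. The highest was Krtap3-2, with 5.67 FPKM in the vemurafenib library and 2.85 FPKM in the vehicle library. Krt32, a keratin of the hair cuticle in human follicles, followed with 1.03 FPKM and 0.692 FPKM in the same order of arms. At these levels a ratio rests on small values, and 2 of the 72 genes past the filter were at least 2-fold lower in vemurafenib wounds (3.26% of the 13392 genes past the filter were) and 5 at least 2-fold higher (1.43% of all). The lowest ratios were those of Krtap5-4 (-1.29), Krtap3-1 (-1.19) and Krtap13-1 (-0.82), and the highest those of Krtap17-1 (1.82), Krtap6-1 (1.58) and Krtap4-6 (1.23), and no level behind these 6 ratios was over 0.407 FPKM.

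**Figure D1:**
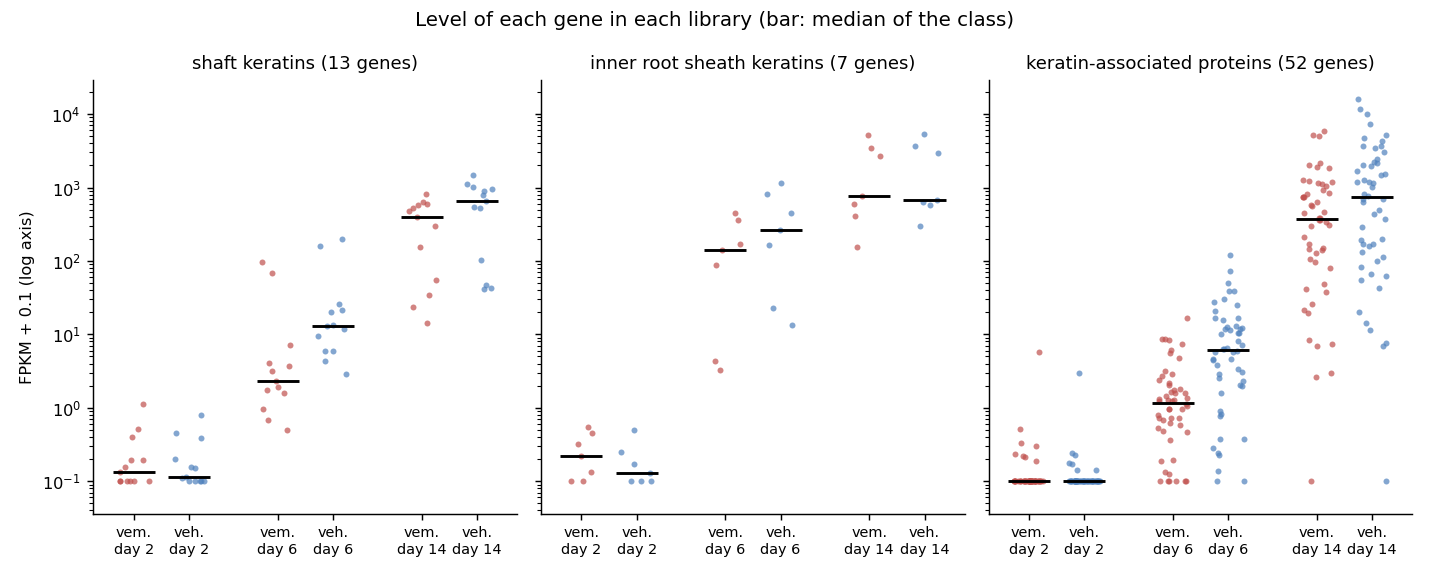
Level of each gene in each library in FPKM plus 0.1, on a log axis, for shaft keratins, inner root sheath keratins and keratin-associated proteins, with vemurafenib (vem.) left of vehicle (veh.) on days 2, 6 and 14; each point is 1 gene and the bar is the median of the class. Most genes sit at the floor of 0.1 on day 2, the inner root sheath keratins reach medians of 141 FPKM (vemurafenib) and 266 FPKM (vehicle) on day 6, and the keratin-associated proteins reach theirs, 373 FPKM and 740.3 FPKM, on day 14.

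Of the 3 classes, the inner root sheath keratins had the highest median and the highest summed level on day 6, and Krt71, Krt25 and Krt27 were the most abundant of the 73 genes in both arms. Krt71, a type II keratin needed for a straight coat in the mouse, had 0.222, 443 and 5128 FPKM in vemurafenib wounds on days 2, 6 and 14, against 0.0739, 1164 and 5367 FPKM in vehicle wounds. Krt25, a type I keratin of the same sheath, had 0.0353, 366 and 3442 FPKM in vemurafenib wounds, against 0, 821 and 3629.7 FPKM in vehicle wounds. Krt27, its close paralog, had 169 and 2655 FPKM on days 6 and 14 in vemurafenib wounds, against 448 and 2939 FPKM in vehicle wounds. In each of these 3 genes the day 6 library of the vemurafenib arm lay below 45% of its vehicle counterpart, and the day 14 libraries were within 10% of each other.

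Krt28 and Krt73 showed the same order of arms on day 6 and the opposite one on day 14. Krt28 had 88.9 and 767 FPKM on days 6 and 14 in vemurafenib wounds, against 164 and 682 FPKM in vehicle wounds. Krt73, a keratin of the sheath cuticle in human follicles, had 141 and 589 FPKM in vemurafenib wounds, against 266 and 585 FPKM in vehicle wounds. Krt26 and Krt72, both made late in the sheath cuticle of human follicles, were far lower on day 6. Krt26 had 3.2 FPKM in vemurafenib wounds and 13.2 FPKM in vehicle wounds on day 6, and 153 and 295 FPKM on day 14. Krt72 had 4.29 FPKM in vemurafenib wounds and 22.5 FPKM in vehicle wounds on day 6, and 414 and 633 FPKM on day 14. These 2 genes had the lowest ratios of the class on both days (-2.01 and -0.95 for Krt26, -2.36 and -0.61 for Krt72). Krt75, the companion layer keratin, had 0.373, 27.4 and 273 FPKM in vemurafenib wounds on days 2, 6 and 14, against 0.444, 58.5 and 291 FPKM in vehicle wounds.

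Among the shaft keratins, an early pair stood above the rest on day 6. Krt35 and Krt85, type I and type II keratins that are the first of the shaft keratins to appear above the matrix in human follicles, had the highest day 6 levels of the 13. Krt35 had 0, 97.9 and 534 FPKM in vemurafenib wounds on days 2, 6 and 14, against 0, 197 and 536 FPKM in vehicle wounds. Krt85 had 0.0555, 69 and 815 FPKM in vemurafenib wounds, against 0.0492, 158 and 954 FPKM in vehicle wounds. On day 6 the vemurafenib level was 49.6% of the vehicle level for Krt35 and 43.7% for Krt85, and on day 14 it was 99.6% and 85.5%.

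The remaining shaft keratins reached at most 7.12 FPKM in vemurafenib wounds and 25.5 FPKM in vehicle wounds on day 6. Most of them are keratins of the cortex. Krt31 had 0.0944, 4.03 and 398 FPKM in vemurafenib wounds on days 2, 6 and 14, against 0, 25.5 and 789 FPKM in vehicle wounds. Krt33a had 3.56 and 579 FPKM on days 6 and 14 in vemurafenib wounds, against 21.3 and 1473 FPKM in vehicle wounds. Krt33b had 0.862 and 300.3 FPKM in vemurafenib wounds, against 5.9 and 647 FPKM in vehicle wounds. Krt34, made high in the cortex of human hair, had 1.49 and 628 FPKM in vemurafenib wounds, against 12.9 and 1113 FPKM in vehicle wounds. Among the type II cortex keratins, Krt81 had 2.22 and 602 FPKM in vemurafenib wounds, against 13.1 and 1002 FPKM in vehicle wounds. Krt86 had 1.62 and 479 FPKM in vemurafenib wounds, against 11.9 and 910.0 FPKM in vehicle wounds. Krt83 had the lowest day 14 ratio of the class. It had 3.05 and 155 FPKM in vemurafenib wounds, against 9.25 and 518 FPKM in vehicle wounds (log2 ratios of -1.57 and -1.74). The near-identical sequences of Krt81, Krt83 and Krt86 and of Krt33a and Krt33b may have let reads pass between them, since the authors shared out reads that map to several places.

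The less abundant shaft keratins were also lower in the vemurafenib library on both days. Krt32 had 7.12 and 54.1 FPKM on days 6 and 14 in vemurafenib wounds, against 19.9 and 103 FPKM in vehicle wounds. Krt82, a cuticle keratin in human follicles, had 0.59 and 14.3 FPKM in vemurafenib wounds, against 4.18 and 42 FPKM in vehicle wounds. Krt84, best known from the tongue, had 0.399 FPKM on day 6 in vemurafenib wounds, no higher than its 0.42 FPKM on day 2, against 2.8 and 0.347 FPKM in vehicle wounds. Over the whole class the day 6 level in vemurafenib wounds was between 11.5% and 49.6% of that in vehicle wounds, and on day 14 between 29.9% and 99.6%.

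The keratin-associated proteins had the lowest median of the 3 classes on day 6 and the highest summed level on day 14. Their median level was 1.07 FPKM in vemurafenib wounds and 6.01 FPKM in vehicle wounds on day 6, and 373 and 740.3 FPKM on day 14. The day 14 medians of the shaft keratins were 398 and 647 FPKM, and those of the inner root sheath keratins 767 and 682 FPKM. Krtap8-1, a small glycine- and tyrosine-rich protein, was listed at 0 on day 2 in both arms. It had 16.6 and 5853 FPKM on days 6 and 14 in vemurafenib wounds, against 120.4 and 15823 FPKM in vehicle wounds. On day 14 it ranked 1 among all genes of the vehicle library and 7 in the vemurafenib library. Krtap7-1 had 8.37 and 5160.5 FPKM in vemurafenib wounds, against 72.7 and 11844 FPKM in vehicle wounds. Krtap22-2 had 7.3 and 5107 FPKM in vemurafenib wounds, against 38.6 and 10074 FPKM in vehicle wounds. Krtap15 had 3.09 and 2170.0 FPKM in vemurafenib wounds, against 12.3 and 7377 FPKM in vehicle wounds. Krtap19-9b had 2.06 and 1829 FPKM in vemurafenib wounds, against 5.81 and 5114 FPKM in vehicle wounds. Krtap19-3 had 2.65 and 2001 FPKM in vemurafenib wounds, against 6.21 and 4654 FPKM in vehicle wounds, and Krtap14 had 1.33 and 1279 FPKM, against 6.34 and 3657 FPKM. All 7 lie in the gene cluster on chromosome 16, and in each the day 14 vehicle library held the highest of the 6 values.

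The other 3 gene clusters had lower levels. On chromosome 11, where the clusters of the high and ultra-high sulfur families lie beside the type I keratins, the highest by mean over the libraries was Krtap3-1, with 4.64 and 1881 FPKM on days 6 and 14 in vemurafenib wounds, against 29.9 and 4300.4 FPKM in vehicle wounds. On chromosome 10 the highest by mean was Krtap10-10, with 1.94 and 143 FPKM in vemurafenib wounds, against 15.7 and 195 FPKM in vehicle wounds. Krtap12-1 was close to it on day 14, with 145 FPKM in vemurafenib wounds and 196 FPKM in vehicle wounds. On chromosome 7 the highest by mean was Krtap5-5, with 0.86 and 97.6 FPKM in vemurafenib wounds, against 4.48 and 158 FPKM in vehicle wounds. The median day 14 level was 1029.7 FPKM in vemurafenib wounds and 2069.6 FPKM in vehicle wounds on chromosome 16 (22 genes), and 338 and 633 FPKM on chromosome 11 (21 genes). It was 143 and 195 FPKM on chromosome 10 (3 genes) and 41.9 and 82.9 FPKM on chromosome 7 (5 genes). Krtap16-1 was left out of these counts because annotations place its symbol on different chromosomes. Paralogs within a family may share reads, and most of these transcripts are short, so that differences in level between family members are uncertain.

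Summed over the 73 genes, the share of all FPKM in the library was 0.00129% in vemurafenib wounds and 0.000646% in vehicle wounds on day 2, 0.223% and 0.462% on day 6, and 7.52% and 16.9% on day 14. On day 14 the keratin-associated proteins alone took 5.28% in vemurafenib wounds and 13.8% in vehicle wounds, the inner root sheath keratins 1.64% and 1.93%, and the shaft keratins 0.574% and 1.12%. Among the 100 most abundant genes of the library were 10 of the 73 in the day 14 vemurafenib library and 23 in the day 14 vehicle library. FPKM weights short transcripts more, so that these are shares of summed FPKM and not of reads.

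**Figure D2:**
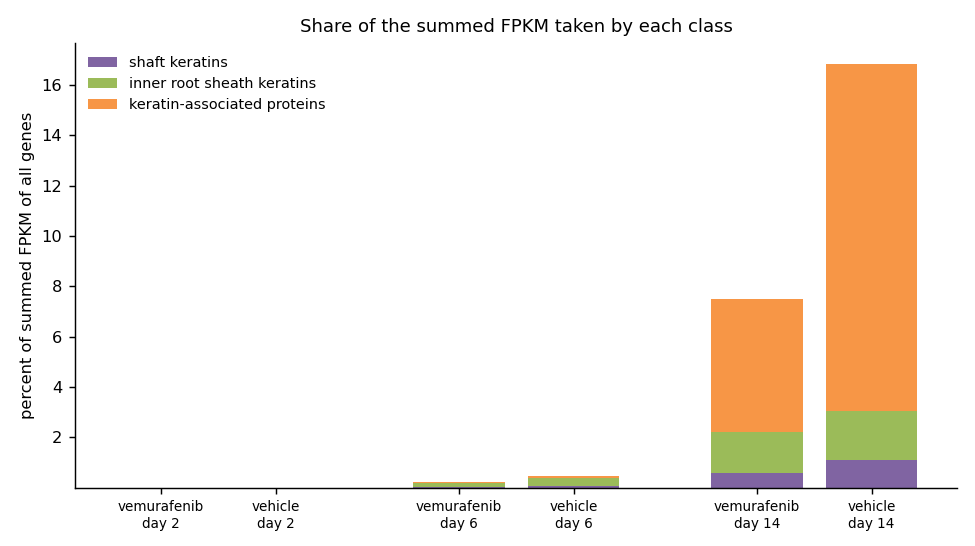
Share of the summed FPKM of all genes taken by shaft keratins, inner root sheath keratins and keratin-associated proteins, in percent, as stacked bars for each library with vemurafenib left of vehicle on each day. The bars are too low to see on day 2, and on day 14 the keratin-associated proteins take 5.28% in the vemurafenib library and 13.8% in the vehicle library.

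The genes rose between the days over both arms. With limma on log2 FPKM, a model of day and arm with 2 libraries per day, 59 of 72 genes were higher on day 6 than on day 2 at a Benjamini-Hochberg adjusted p under 0.05, where 2.93% of all genes tested were called higher. On day 14, 69 of 72 were higher than on day 6 (1.84% of all genes) and 72 of 72 were higher than on day 2 (7.71% of all genes). The filter used the mean over all 6 libraries, and only 54 of the 72 genes passed it without the day 14 libraries. For the others, a mean level on day 14 above that of the earlier days followed from the filter. The libraries of a day come from different arms. A difference between the arms that is equal on all days is fitted by the model and left out of the spread. The spread here includes any difference between the arms that changes with the day. Krt35 rose by 10.44 ± 0.34 on the log2 scale between days 2 and 6 (SE, limma adjusted p = 0.000266), and Krt71 by 11.57 ± 0.53 (limma adjusted p = 0.00055). Krtap8-1 rose by 8.81 ± 0.62 between days 2 and 6 (limma adjusted p = 0.00232) and by a further 7.74 ± 0.62 between days 6 and 14 (limma adjusted p = 0.00226). Krt35 and Krtap8-1 were listed at 0 in both day 2 libraries, and Krt71 was near 0. The sizes of their rises from day 2 thus depend on the 0.1 FPKM added to each level. The 3 genes not called between days 6 and 14 were Krt73, Krtap17-1 and Krtap5-3, and their values had been seen when they were named. With 1 FPKM added in place of 0.1, limma called 26 of 72 genes higher on day 6 than on day 2, without the filter on low values 26 as well, and with the day 14 libraries left out (4 libraries, 54 genes past the filter) 0, where 49 of the 54 had an unadjusted p under 0.05. Between days 6 and 14 it called 43 of 72 without the filter.

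Within each arm the same steps were counted as at least 2-fold, with no test. From day 2 to day 6, 61 of 72 genes were at least 2-fold higher in vemurafenib wounds (9.43% of all genes) and 70 of 72 in vehicle wounds (9.98% of all genes). On day 14 all 72 were at least 2-fold above day 6 in both arms, where 7.46% of all genes were in vemurafenib wounds and 12.6% in vehicle wounds. The filter favoured such a rise in the genes that passed it only through the day 14 libraries. The median log2 change from day 2 to day 6 was 8.27 in vemurafenib wounds and 9.82 in vehicle wounds for inner root sheath keratins, 3.99 and 6.39 for shaft keratins, and 3.26 and 5.88 for keratin-associated proteins. With 1 FPKM added in place of 0.1 it was 1.69 and 3.63 for shaft keratins, and 0.95 and 2.85 for keratin-associated proteins. From day 6 to day 14 it was 3.53 in vemurafenib wounds and 2.20 in vehicle wounds for inner root sheath keratins, 5.62 and 4.94 for shaft keratins, and 8.27 and 6.74 for keratin-associated proteins. In all 3 classes the larger later step was thus in the vemurafenib arm and the larger earlier step in the vehicle arm. Both steps of an arm share its day 6 library. A low day 6 level makes the earlier step smaller and the later step larger, so that this restates the day 6 difference between the arms.

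On day 6, 71 of the 72 genes were lower in the vemurafenib library than in the vehicle library (45% of all genes past the filter were), and the remaining one, Krtap9-5, was listed at 0 in both. At least 2-fold lower were 64 of 72, where 5.03% of all 13392 genes were. Rescaling the libraries to the same total, which moved the median of all genes to 0.40 (log2), left 55 of 72 at least 2-fold lower, and 70 lower. By class, the 64 in the FPKM as deposited were 13 of 13 shaft keratins, 5 of 7 inner root sheath keratins, Krt75 and 45 of 51 keratin-associated proteins. The median log2 ratio was -2.54 for shaft keratins, -1.40 for inner root sheath keratins and -2.43 for keratin-associated proteins, against 0.04 over all genes. The lowest ratios were those of Krtap4-9 (-3.90, 0.589 FPKM in vemurafenib wounds and 10.2 FPKM in vehicle wounds), Krtap4-16 (-3.71, 1.16 and 16.4 FPKM) and Krtap13-1 (-3.43, 2.27 and 25.3 FPKM). Apart from Krtap9-5, the highest were those of Krtap19-1 (-0.17, 0.701 and 0.801 FPKM) and Krtap19-5 (-0.44, 8.6 and 11.7 FPKM).

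On day 14, 70 of the 72 genes were lower in the vemurafenib library (57% of all genes were) and 2, Krt28 and Krt73, were higher (0.17 and 0.01 on the log2 scale), of which Krt73 was lower once the libraries were rescaled to the same total. At least 2-fold lower were 32 of 72, where 7.66% of all genes were, made up of 4 of 13 shaft keratins, 0 of 7 inner root sheath keratins and 28 of 51 keratin-associated proteins. Rescaled to the same total the count was 43 (median of all genes -0.25), and rescaled to the same upper quartile it was 23, with 63 genes lower and 9 higher (median of all genes 0.03). The median log2 ratio was -0.92 for shaft keratins and -1.06 for keratin-associated proteins, against -0.12 over all genes. It was -0.077 for inner root sheath keratins, and 0.080 once rescaled to the same upper quartile. The lowest were those of Krtap27-1 (-2.59, 6.94 FPKM in vemurafenib wounds and 42.3 FPKM in vehicle wounds), Krtap15 (-1.77) and Krt83 (-1.74). Below the 2 genes that were higher, Krt35 had a ratio of -0.01.

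**Figure D3:**
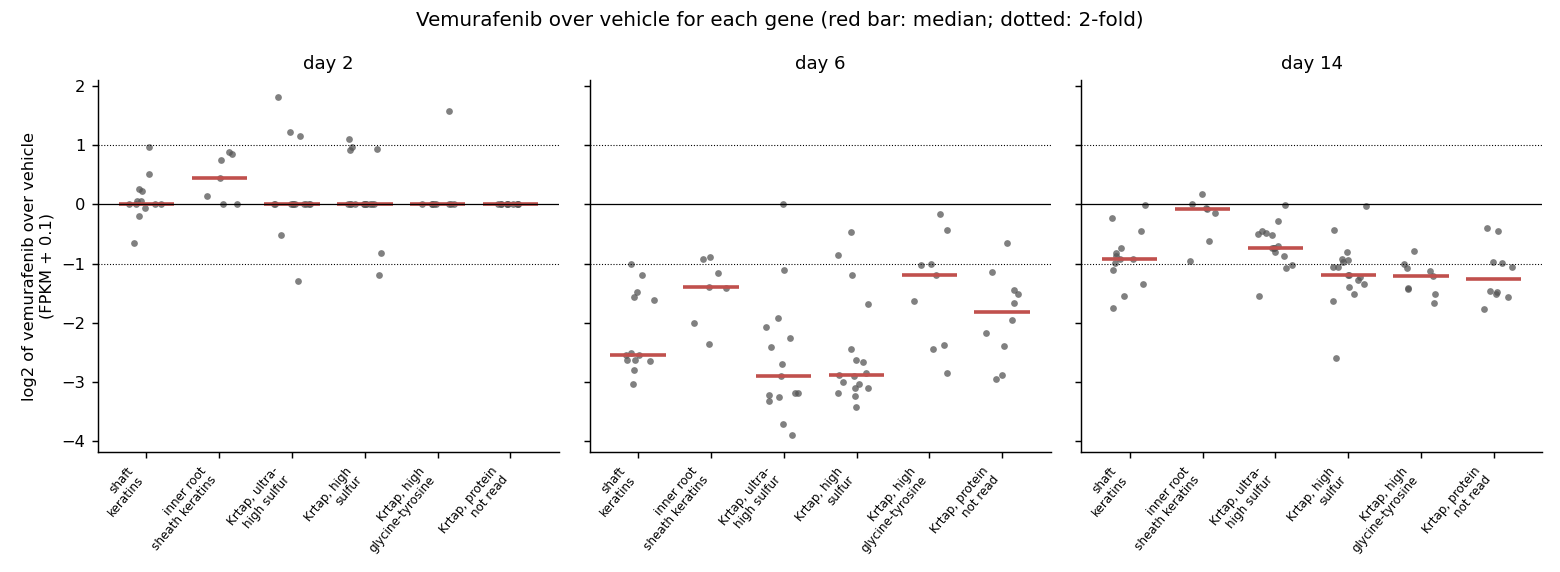
Log2 ratio of vemurafenib to vehicle (FPKM plus 0.1) of each gene with a mean of at least 1 FPKM on days 2, 6 and 14, for shaft keratins, inner root sheath keratins and the keratin-associated proteins split by protein composition; the bar is the median and the dotted lines mark 2-fold. The points lie at or below 0 on day 6, with medians of -2.54 for shaft keratins and -1.40 for inner root sheath keratins, and on day 14 the inner root sheath keratins lie around 0 at a median of -0.077 (0.080 once rescaled to the same upper quartile).

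Over all 3 days, with the days serving as the replicates of an arm, limma called 0 of the 72 genes between vemurafenib and vehicle (0.00747% of all genes tested, 1 gene, was called). The smallest limma adjusted p among the 72 was 0.999965, and 24 of them had an unadjusted p under 0.05. For Krtap8-1 the log2 difference over the 3 days was -1.43 ± 0.50 (SE), lower in 2 of 3 days and listed at 0 in both arms on the remaining day. For Krt71 it was -0.19 ± 0.43 (SE), lower in 2 of 3 days, and neither gene was called. Krt71 was higher on day 2, at 0.222 FPKM in vemurafenib wounds against 0.0739 FPKM in vehicle wounds. The count differed with the day left out. With days 6 and 14 alone, limma called 48 of 72 genes lower (1.33% of all genes tested were). Without day 6 the count was 0 of 72, and without day 14 it was 0 of the 54 genes past the filter. Each of these fits had 4 libraries and 1 residual degree of freedom, and the cause of the difference was not tested.

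The keratin-associated proteins did not all stand at the same ratio. By the composition of the protein, read for 42 of the 52 (80.8%), 15 were ultra-high sulfur (at least 30% cysteine), 9 were high in glycine and tyrosine (at least 35%) and the other 18 were counted as high sulfur. Krtap7-1, with 29.9% glycine and tyrosine, falls among these 18 by that rule. Krtap17-1, with 34.9% glycine and tyrosine and 35.8% cysteine, lies just under the 35% limit and is counted as ultra-high sulfur. On day 6 the median log2 ratio was -2.89 for the ultra-high sulfur genes, -2.89 for the high sulfur genes and -1.20 for the glycine- and tyrosine-rich genes. The ranges overlapped, from -3.90 to 0, from -3.43 to -0.47 and from -2.85 to -0.17 in the same order. Krtap8-1, the most abundant of the glycine- and tyrosine-rich genes, was the one at -2.85. On day 14 the medians of these groups were -0.74, -1.19 and -1.22, so that the ultra-high sulfur genes then had the highest of the 3. Krtap4-7, the highest ultra-high sulfur gene by mean, had 1.72 and 752 FPKM on days 6 and 14 in vemurafenib wounds, against 16.4 and 1257 FPKM in vehicle wounds. Krtap4-9, also ultra-high in sulfur, had 169.6 FPKM in vemurafenib wounds and 172 FPKM in vehicle wounds on day 14, where it had shown the lowest ratio of the class on day 6. Krtap19-1, high in glycine and tyrosine, had 364 and 1152 FPKM on day 14, where its day 6 levels had been close. The families share sequence and gene cluster, so that their members are not independent, and the difference between the groups was not tested.

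How far each gene had come by day 6 was given by its day 6 level as a percentage of its day 14 level in the same arm. For inner root sheath keratins the median was 8.63% in vemurafenib wounds and 21.7% in vehicle wounds. For shaft keratins it was 1.70% and 3.24%, and for keratin-associated proteins 0.192% and 0.721%. The furthest were Krt73 (23.9% in vemurafenib wounds and 45.6% in vehicle wounds) and Krt35 (18.3% and 36.8%), followed in the vehicle arm by Krt28 (11.6% and 24.1%). Among the keratin-associated proteins the furthest was Krtap5-2 of the chromosome 7 cluster (4.05% and 19%), and Krtap17-1, alone of its family, stood at 1.97% and 8.96%. By cluster the median was 1.19% and 7.03% on chromosome 10, 0.856% and 2.84% on chromosome 7, 0.195% and 1.04% on chromosome 11, and 0.143% and 0.302% on chromosome 16. The order of the classes, with the sheath ahead of the shaft and the keratin-associated proteins last, was the same in both arms, and the median of each class was lower in the vemurafenib arm. That difference between the arms rests on the same day 6 libraries as the ratios of day 6 and is no separate result.

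**Figure D4:**
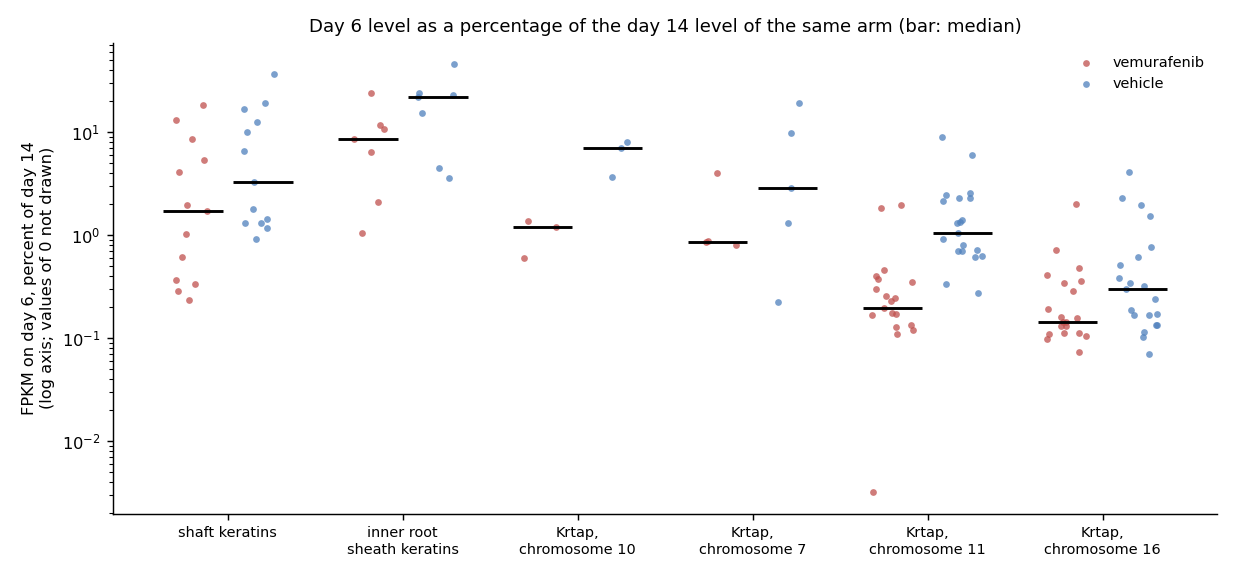
Day 6 FPKM of each gene as a percentage of its day 14 FPKM in the same arm, on a log axis with values of 0 not drawn, for shaft keratins, inner root sheath keratins and keratin-associated proteins by chromosome, with vemurafenib left of vehicle in each pair and the median as a bar. The inner root sheath keratins have medians of 8.63% and 21.7%, and the keratin-associated proteins of chromosome 16 have 0.143% and 0.302%.

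Genes that work with these proteins were taken from 2 lists. Of 12 transcription factors listed for the hair matrix, shaft and inner root sheath, 10 were higher in the vemurafenib library on day 2 (median log2 ratio of 0.61), where 49.8% of all genes were. On day 6, 12 were lower (median of -0.64, 2 of them at least 2-fold), where 45% of all genes were, and on day 14, 8 were lower (median of -0.20), near the 57% of all genes. Hoxc13, a homeobox factor that acts on hair keratin genes, had 1.34, 17.2 and 90.2 FPKM in vemurafenib wounds on days 2, 6 and 14, against 0.509, 26.9 and 98.4 FPKM in vehicle wounds. Foxn1, the factor lost in the nude mouse, had 2.16, 3.3 and 28.7 FPKM in vemurafenib wounds, against 2.03, 7.59 and 51.3 FPKM in vehicle wounds. Of 6 structural and crosslinking proteins, 4 were higher on day 2 (median of 0.16), and 6 were lower on day 6 (median of -1.44) and 6 on day 14 (median of -0.71). Tchh, trichohyalin of the inner root sheath, had 0.536, 33.2 and 1114 FPKM in vemurafenib wounds, against 0.437, 106 and 1286 FPKM in vehicle wounds. Dsg4, a desmosomal cadherin of the shaft, had 0.408 and 1.89 FPKM on days 6 and 14 in vemurafenib wounds, against 0.454 and 20.7 FPKM in vehicle wounds (log2 ratio of -3.39 on day 14).

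Markers of other cell types in the samples also differed between the same libraries. On day 6 the epidermis list was also lower in the vemurafenib library, in 6 of 6 genes with a median log2 ratio of -1.49. Its summed levels were 8511 FPKM in vemurafenib wounds and 22928 FPKM in vehicle wounds. The outer root sheath and bulge list had a median of -0.35 (lower in 5 of 6) and melanocyte markers -0.39 (lower in 4 of 5). Macrophage markers had 1.52 (higher in 4 of 4), fibroblast markers 0.54 (higher in 4 of 4) and skeletal muscle markers 1.21 (higher in 3 of 3). Over all genes past the filter, 45% were lower on day 6. On day 14 the medians were -0.47 for the epidermis (lower in 4 of 6), 0.13 for the outer root sheath and bulge (higher in 4 of 6) and 0.23 for melanocytes (higher in 3 of 5). They were -0.25 for macrophages (lower in 3 of 4), -0.80 for fibroblasts (lower in 4 of 4) and 1.91 for skeletal muscle (higher in 3 of 3). Over all genes past the filter, 57% were lower on day 14. In the epidermis list Krt5 (0.46) and Krt14 (0.35) were higher, and the other 4, among them Krt1 (-1.58) and Krt10 (-1.30), were lower. Skeletal muscle markers summed to 4662 FPKM in vemurafenib wounds and 1954 FPKM in vehicle wounds on day 6, and to 2748 and 852 FPKM on day 14. The proliferation markers had medians of -0.20 on day 6 and -0.01 on day 14. The part of these differences in tissue in the values of the hair genes was not tested.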

How the data were processed

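RNA of wounded mouse skin was sequenced in 6 libraries, 1 per arm and day. Per the labels the libraries were poly-A enriched and single end, whereas the study's methods give paired ends. The authors mapped the reads to mm9 with TopHat and made the deposited FPKM values using cuffquant and cuffnorm. Fragment bias and multi-mapping were corrected, and normalization was to compatible hits. TopHat2 and Cuffdiff stand in the submitters' processing notes as well. The FPKM table holds no counts, so library depth is unknown and intervals based on depth are not given. Of its 23940 rows, 27 whose symbols read as dates were left out. All 6 columns were used.

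Log2 ratios were taken after adding 0.1 FPKM, and counts of genes were made among 13392 genes averaging 1 FPKM or more. Day and arm effects were fitted with limma 3.58.1 (R 4.3.3) on log2(FPKM + 0.1) over all 6 libraries, with a trended prior, 2 residual degrees of freedom and p-values adjusted by Benjamini-Hochberg over all genes. The fit was tested on simulated data with independent noise and arm effects equal on all 3 days. The hair genes, near 0 on day 2, differ from that setting, so the simulation does not show how the fit performs on them. P-values measure the spread between these libraries, which may be technical, since nothing says how many animals each came from.

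Protein composition came from the translated GENCODE M1 transcripts (NCBIM37), and promoters from RefSeq (GRCm38.p6). Of the 73 genes, 68 had mm9 positions and 8 of all were matched by an older symbol. Named were the 8 genes of highest mean in each class, the 3 highest and 3 lowest ratios of each day, the highest of each Krtap cluster and composition group, and genes of the listed markers; others, such as Krt32, Krt82, Krt84, Krtap12-1 and Krtap5-2, were named after their values were seen. The genes and the lists were chosen with earlier results of these data known. Alternatives were another pseudocount, other filters, 3 rescalings, the mean in place of the median, 1 gene per family and leaving out each day.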

Additional observations from a re-analysis of the deposited data

Results flagged for a closer look

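The inner root sheath keratins had median log2 ratios of vemurafenib to vehicle that differed in sign between the days. The median over the 7 genes was 0.44 on day 2, -1.40 on day 6 and -0.077 on day 14 (0.080 there once rescaled to the same upper quartile). On day 2, 5 of the 7 genes were higher in the vemurafenib library (49.8% of all genes were), and Krt26 and Krt72 were listed at 0 in both. On day 6 all 7 were lower (45% of all genes were). The difference between the days was not tested, since each day has 1 library per arm, and the day 2 levels of these genes were at most 0.446 FPKM in vemurafenib wounds and 0.396 FPKM in vehicle wounds.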

How the results depend on the processing

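No paired analysis was possible because the labels give no replicate numbers, apart from the day term of the limma model, which sets the arms against each other within each day. Of 168 recomputed class medians, 157 stayed within 1.5-fold of the reported value and 1 changed sign: that of inner root sheath keratins on day 14, -0.077 as reported and 0.080 once rescaled to the same upper quartile. Many of the 157 could not move, so the count says little about stability. Leaving out the filter kept the same hair genes in every class. The higher filter and the choice of 1 gene per family kept the same shaft and inner root sheath keratins. With 1 FPKM added, the day 6 ratio was -1.70 for shaft keratins and -1.70 for keratin-associated proteins. The change from day 2 to day 6 was then 1.69 in vemurafenib wounds and 3.63 in vehicle wounds for shaft keratins, 6.87 and 8.02 for inner root sheath keratins, and 0.95 and 2.85 for keratin-associated proteins, whose change from day 6 to day 14 was 7.60 and 6.14. Taken as a mean, the change of inner root sheath keratins from day 6 to day 14 in vehicle wounds was 2.79. Between days 2 and 6, limma called 26 hair genes with 1 FPKM added and 26 without the filter, against 59, and between days 6 and 14, 71 and 43, against 69. Of all genes, 176 were called between days 2 and 6 and 166 between days 6 and 14 without the filter, where more genes were tested, against 636 and 488. Between the arms, limma called 0 genes without the filter and 0 at a mean of at least 5 FPKM, against 1. Leaving out a day gave 0 to 48 hair genes and 0 to 286 of all genes, with 92 genes without day 6. An alternative chosen after seeing the data left out the day outside a contrast: limma then called 0 hair genes and 0 of all genes between days 2 and 6 (without day 14), and 72 and 1680 between days 6 and 14 (without day 2). It left 4 libraries and 1 residual degree of freedom. The causes were not tested. Depth is unknown, and levels under 1 FPKM, most of those of day 2, carry an unknown counting error.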
